A study of Mus musculus with 7 samples.

Results

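Mlana and 7 further genes of the melanocyte lineage were followed in the neonatal ventricle of albino BALB/c mice. The 8 genes, Mlana, Pmel, Tyrp1, Dct, Tyr, Mitf, Kit and Ednrb, were taken by gene symbol, and all of them are among the 17404 genes of the deposited table. They were selected on the strain comparison itself, in which the expression values of Mlana stood higher in one substrain, so their levels and strain differences are given as a description and carry no test. RNA-Seq was done on pooled ventricular tissue from postnatal day 4 (P4) neonates of BALB/cByJ (3 libraries) and BALB/cJ (4 libraries), sister substrains of one albino inbred stock that received no treatment. The study compared them to find genes that differ in expression in the neonatal heart. The sample labels and the methods give 3 to 4 hearts per pool, whereas the study's results give 4 to 5, so the spread between libraries is that between pools. All values are the authors' expression values, normalized for sequencing depth and transcript length. The sources used here do not say whether that unit is FPKM or TPM, and the number of reads behind a value is not known.

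Melanocytes arise from the neural crest and migrate as melanoblasts through the embryo, and in mice some of them settle in the heart, mainly in the valves, the septum and the atria. Their survival and migration need the receptor tyrosine kinase KIT with its ligand KITL, and the endothelin receptor EDNRB with endothelin 3. MITF, a basic helix-loop-helix leucine zipper factor, switches on the pigment genes, whose products work in the melanosome. PMEL forms the fibrils on which melanin is laid down, MLANA (MART-1) assists the maturation of PMEL, and tyrosinase (TYR), TYRP1 and dopachrome tautomerase (DCT) carry out melanin synthesis. BALB/c mice are albino because of a missense change in the coding sequence of Tyr, which leaves melanocytes in place without pigment. Mitf, Kit and Ednrb are also used by other cells of the heart, Mitf by cardiomyocytes and mast cells, Kit by mast cells, and Ednrb by endothelial cells.

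MITF binds the sequence TCATGTG, known as the M-box, upstream of pigment genes. The upstream bases of Tyr, Tyrp1 and Dct are shown because they carry the motif that links Mitf, one of the well-expressed genes here, to pigment genes, of which Tyr and Tyrp1 were near 0 and Dct was weakly expressed. RefSeq promoter windows on GRCm38.p6, the assembly also called mm10, run from 250 bases before to 50 bases after each annotated start, and were given for 6 of the 8 genes, all but Mlana and Pmel. The 250 bases before the start follow, 5′ to 3′ on the strand of the gene, at chr7:87493513-87493762 (minus strand) for Tyr, chr4:80833963-80834212 (plus strand) for Tyrp1 and chr14:118052247-118052496 (minus strand) for Dct, with each match to TCATGTG, or to its reverse complement CACATGA, in capitals.
Tyr: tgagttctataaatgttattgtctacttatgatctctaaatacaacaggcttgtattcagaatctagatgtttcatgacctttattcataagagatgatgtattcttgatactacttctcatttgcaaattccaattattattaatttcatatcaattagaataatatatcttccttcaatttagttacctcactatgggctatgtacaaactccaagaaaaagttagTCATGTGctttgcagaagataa
Tyrp1: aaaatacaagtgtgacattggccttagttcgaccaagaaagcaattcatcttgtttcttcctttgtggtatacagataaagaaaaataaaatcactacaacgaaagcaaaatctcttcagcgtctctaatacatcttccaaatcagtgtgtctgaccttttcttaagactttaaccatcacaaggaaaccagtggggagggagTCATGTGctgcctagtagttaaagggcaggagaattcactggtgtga
Dct: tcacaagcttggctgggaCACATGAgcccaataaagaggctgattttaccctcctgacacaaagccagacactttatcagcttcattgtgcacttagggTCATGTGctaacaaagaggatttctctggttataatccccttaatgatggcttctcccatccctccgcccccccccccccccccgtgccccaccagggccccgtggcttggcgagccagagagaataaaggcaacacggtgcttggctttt
The match starts 22 bases before the start of Tyr and 47 bases before that of Tyrp1. For Tyrp1 this is the start used for the promoter window. It lies inside the annotated gene, whose first base is chr4:80834123, and the match lies inside that gene too. Dct holds 1 match 151 bases before its start and 1 on the opposite strand 232 bases before it. No match was found in the windows of Kit, Mitf and Ednrb. Of 32851 RefSeq promoter windows of the same length, 1239 (3.77%) hold the motif on either strand and 44 (0.134%) hold it 2 or more times. A match of these letters is a description of the sequence only.

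The pools differed in features that bear on these genes. The summed level of 4 genes of the Y chromosome (Kdm5d, Uty, Eif2s3y and Ddx3y), which males alone transcribe, was 80.2 to 128 in BALB/cByJ and 0.04 to 37.6 in BALB/cJ, so the sex makeup of the pools differed between the strains. The atrial myosin light chain Myl7 ranged from 6.37 to 41.55 and the atrial calcium pump regulator Sln from 0.21 to 5.8, with high and low libraries in both strains. Each library listed 11815 to 11979 genes at 1 or more. Of 11 markers listed for melanocytes, 10 are among the genes of the table, and 7 of these stayed under 1 in every library. The other 3 were Mitf, which other heart cells also use and which reached 19.17, Mlana, which reached 3.83, and Dct, which reached 2.59. The 7 low markers (Tyr, Tyrp1, Pmel, Sox10, Slc45a2, Slc24a5 and Gpr143) summed to 0.67 to 0.99 in BALB/cByJ and 0.45 to 1.02 in BALB/cJ, and 5 of them were listed at 0 in at least 1 library. The values are those of whole ventricle, in which fewer cells of a type and less RNA per cell cannot be told apart.

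Mlana (gene ID 77836, chr19:29697541-29708447) was the gene of the 8 whose strains lay farthest apart. In BALB/cByJ its level was 3.15, 2.69 and 3.83 in libraries 1 to 3. In BALB/cJ it was 0.86, 0.26, 0.79 and 0.28 in libraries 1 to 4. The lowest BALB/cByJ library was 3.13 times the highest BALB/cJ library, so the strains did not overlap, and within BALB/cJ libraries 1 and 3 stood apart from libraries 2 and 4. The BALB/cByJ mean of 3.22 ± 0.574 (SD, n = 3) was 5.89 times the BALB/cJ mean of 0.548 ± 0.322 (SD, n = 4). On the log2(value + 1) scale, which understates differences of low genes, the difference was 1.46 with an SD within strains of 0.26, and with a pseudocount of 0.1 it was 2.49. The mean of Mlana over all libraries was above that of 35.8% of the genes in the table, which places it among the weakly expressed genes.

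**Figure D1:**
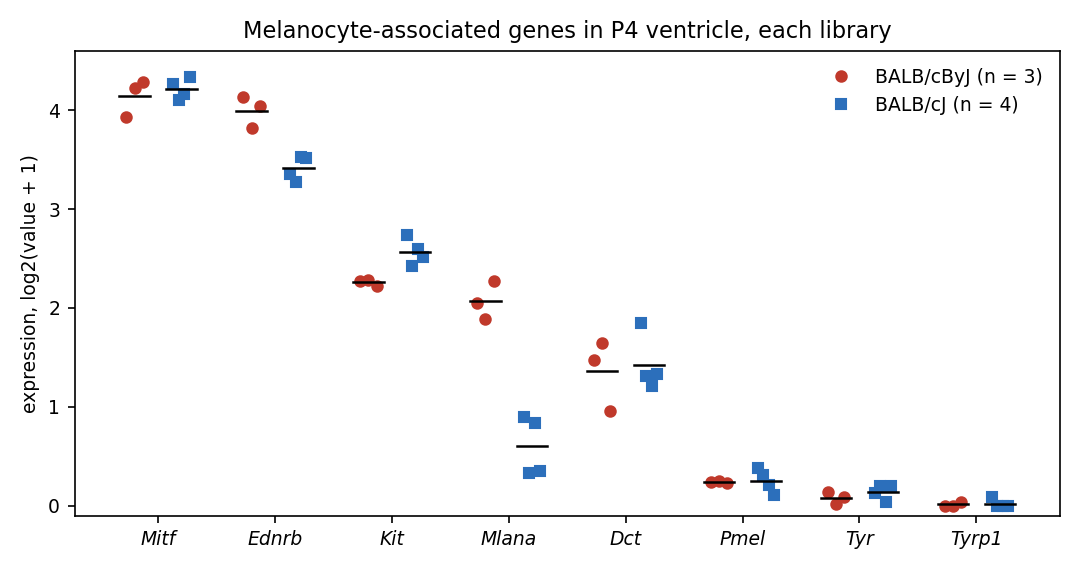
Expression of the 8 genes on the log2(value + 1) scale in each library of BALB/cByJ (circles, 3 libraries) and BALB/cJ (squares, 4 libraries), with horizontal lines at the strain means. Mlana separates the strains most clearly, Ednrb and Kit separate them by less and in opposite directions, and Pmel, Tyr and Tyrp1 lie near 0 in both.

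The other structural protein of the melanosome did not separate the strains. Pmel (gene ID 20431, chr10:128695888-128720238), whose product MLANA helps to mature, was at 0.18, 0.19 and 0.17 in BALB/cByJ and at 0.3, 0.24, 0.16 and 0.08 in BALB/cJ. All 3 BALB/cByJ libraries lay inside the range of BALB/cJ. The means were 0.18 ± 0.01 (SD, n = 3) and 0.195 ± 0.0957 (SD, n = 4), under the minimum mean of 0.5 that was required for testing.

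The melanin-forming enzymes did not separate the strains either. Tyr (gene ID 22173, chr7:87424771-87493512), the rate-limiting enzyme of melanin synthesis, was at 0.1, 0.01 and 0.06 in BALB/cByJ and at 0.09, 0.15, 0.03 and 0.15 in BALB/cJ. Tyrp1 (gene ID 22178, chr4:80834123-80851736), an oxidase of melanin intermediates in mice, was listed at 0 in 5 of the 7 libraries, the exceptions being BALB/cByJ 3 (0.03) and BALB/cJ 1 (0.06). Both genes were under the minimum mean, and at these levels no difference was detectable. Dct (gene ID 13190, chr14:118012790-118052246), which is also an early marker of melanoblasts, was the best expressed of the enzymes. Its level was 1.78, 2.13 and 0.94 in BALB/cByJ, and 2.59, 1.49, 1.31 and 1.52 in BALB/cJ. The highest and the lowest libraries belonged to different strains and the ranges overlapped, with means of 1.62 ± 0.612 (SD, n = 3) and 1.73 ± 0.582 (SD, n = 4). The log2 difference of -0.07 went from -0.21 to 0.14 when libraries were left out in turn, so Dct had no stable direction. The libraries highest in Dct were not those highest in Mlana, since BALB/cByJ 3 held the most Mlana and the least Dct of all 7.

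Mitf (gene ID 17342, chr6:97807002-98021360) was the most abundant of the 8 genes, with a mean above that of 74.9% of the genes in the table. Its level was 14.25, 17.65 and 18.53 in BALB/cByJ and 18.16, 16.19, 16.9 and 19.17 in BALB/cJ. The strains overlapped, with means of 16.8 ± 2.26 (SD, n = 3) and 17.6 ± 1.32 (SD, n = 4) and a log2 difference of -0.07. The table gives 1 value for the gene, so isoforms from its several promoters, among them the melanocyte form, cannot be told apart.

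The receptors of melanoblasts differed between the strains in opposite directions. Ednrb (gene ID 13618, chr14:103814615-103844508) was at 16.5, 13.08 and 15.41 in BALB/cByJ and at 9.24, 8.69, 10.5 and 10.42 in BALB/cJ. Every BALB/cByJ library was above every BALB/cJ library, with means of 15.0 ± 1.75 (SD, n = 3) and 9.71 ± 0.892 (SD, n = 4), a ratio of 1.54 and a log2 difference of 0.58. The 10 endothelial markers, in whose cells Ednrb is also transcribed, had a summed level of 487 to 523 in BALB/cByJ and 453 to 518 in BALB/cJ, which overlapped. The part of endothelial cells in the strain difference of Ednrb was not tested.

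Kit (gene ID 16590, chr5:75574987-75656722) was at 3.82, 3.85 and 3.68 in BALB/cByJ and at 5.68, 4.36, 5.06 and 4.72 in BALB/cJ. Every BALB/cByJ library was below every BALB/cJ library. The means were 3.78 ± 0.0907 (SD, n = 3) and 4.95 ± 0.562 (SD, n = 4), with BALB/cJ at 1.31 times BALB/cByJ and a log2 difference of -0.31. The mast cell markers, in whose cells Kit is also transcribed, summed to 24.1 to 36.2 in BALB/cByJ and 30.9 to 40.2 in BALB/cJ. In BALB/cByJ libraries 1 to 3 the mast cell sum was 36.2, 24.1 and 30.4, beside Kit at 3.82, 3.85 and 3.68. In BALB/cJ libraries 1 to 4 the sum was 30.9, 36.2, 40.2 and 39.5, beside Kit at 5.68, 4.36, 5.06 and 4.72. The part of mast cells in the strain difference of Kit was not tested.

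Of the 8 genes, 3 (Mlana, Ednrb and Kit) had strains that did not overlap, and 17.0% of all 12715 tested genes had this property too. By direction, 4.33% of tested genes had every BALB/cByJ library above every BALB/cJ library, as Mlana and Ednrb did, and 12.6% had every one below, as Kit did. Since the genes were chosen with these values known, nothing is read from the count.

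The order of the genes differed between the strains at one place. In BALB/cByJ the medians ran from Mitf (17.65) and Ednrb (15.41) through Kit (3.82), Mlana (3.15) and Dct (1.78) to Pmel (0.18), Tyr (0.06) and Tyrp1, which was listed at 0. The ranges of Mitf and Ednrb, of Kit and Mlana, and of Tyr and Tyrp1 overlapped, and the other neighbors in that order did not. In BALB/cJ the medians were 17.53 for Mitf, 9.83 for Ednrb, 4.89 for Kit and 1.505 for Dct, followed by Mlana at 0.535. The ranges of Mitf, Ednrb, Kit, Dct and Mlana were all separate there, whereas Mlana overlapped Pmel, Pmel overlapped Tyr, and Tyr overlapped Tyrp1. Mlana thus stood above Dct in every BALB/cByJ library and below it in every BALB/cJ library.

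Within each strain, the libraries lowest in Mlana were also the lowest in Myl7 and Sln. Myl7 was at 32.58, 6.85 and 24.29 in BALB/cByJ libraries 1 to 3, and at 16.57, 6.37, 41.55 and 6.37 in BALB/cJ libraries 1 to 4. Sln was at 5.8, 0.76 and 2.27 and at 2.4, 0.39, 4.31 and 0.21 in the same order. In BALB/cByJ library 2 was the lowest for Mlana, Myl7 and Sln, and in BALB/cJ libraries 1 and 3 were above libraries 2 and 4 for all 3 genes. Across the 7 libraries, as deviations from the strain means, Mlana had a Pearson r of 0.81 with Myl7, which ranked 93 among 12714 genes, and of 0.77 with Sln, which ranked 146. The light chain Myl4 and Nppa were less like it, with an r of 0.64 (rank 438) and of -0.09 (rank 5959). No r is given for the rest of the atrial list. Nr2f2 (log2 difference -0.32, adjusted p = 0.192 with limma) was at 3.91, 4.98 and 4.55 in BALB/cByJ libraries 1 to 3. Bmp10 (-0.29, adjusted p = 0.625) was at 0.9, 1.22 and 0.07 there, so both were highest in library 2, which was lowest in Mlana. In BALB/cJ libraries 1 to 4 Bmp10 was at 1.51, 0.07, 1.92 and 1.11, and Nr2f2 at 4.98, 5.64, 5.96 and 6.82. Dkk3 had a log2 difference of 0.01 (adjusted p = 0.961). The atrial list as a whole held 7 tested genes, none of them called, with a median log2 difference of 0.41 beside -0.073 for all genes tested. Its sum, carried mostly by Nppa, was 245 to 396 in BALB/cByJ and 144 to 308 in BALB/cJ. Myl7 itself had a log2 difference of 0.41 ± 0.53 (SE, adjusted p = 0.71 with limma and Benjamini-Hochberg adjustment), and Nppa, the atrial natriuretic peptide, of 0.8 ± 0.25 (adjusted p = 0.119, and 0.00587 without BALB/cJ 2). With the summed Myl7 and Sln level as a covariate, an alternative added after the data were seen, the log2 difference of Mlana was 1.38. The part of atrial tissue in the levels of Mlana was not tested.

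**Figure D2:**
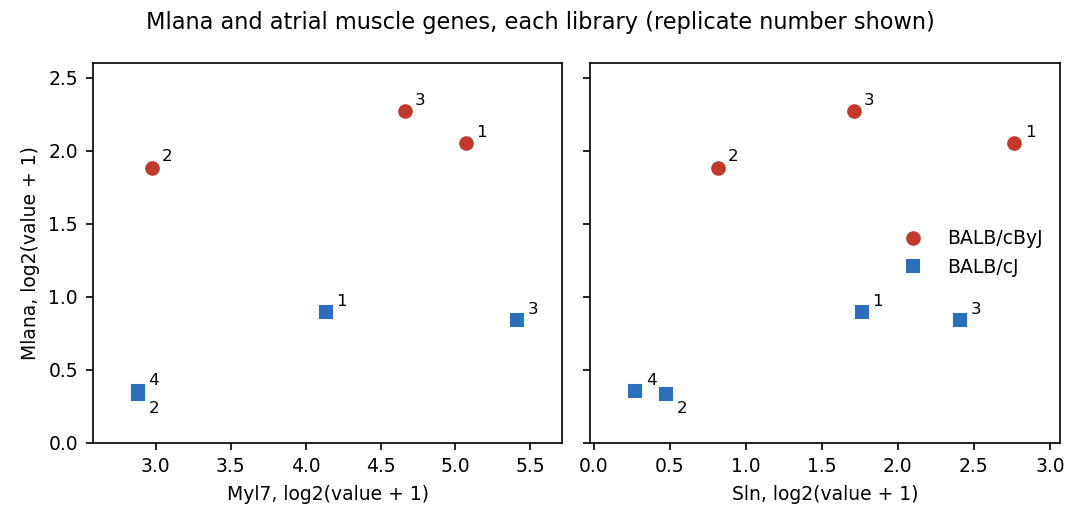
Mlana against the atrial genes Myl7 (left) and Sln (right) on the log2(value + 1) scale, with 1 point per library and its replicate number, for BALB/cByJ (circles) and BALB/cJ (squares). In BALB/cByJ library 2 is the lowest on every axis, and within BALB/cJ libraries 1 and 3 lie above and to the right of libraries 2 and 4.

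The Y-linked sum was higher in every BALB/cByJ library than in any BALB/cJ library, as Mlana was. In BALB/cJ libraries 1 to 4 the sum was 0.04, 14.8, 22.6 and 37.6, beside Mlana at 0.86, 0.26, 0.79 and 0.28. With the Y-linked level as a covariate the log2 difference was 1.72 for Mlana, 0.48 for Ednrb, -0.18 for Kit, 0.27 for Dct and -0.03 for Mitf. Because the Y-linked sum did not overlap between the strains, this covariate follows strain, and sex and strain cannot be told apart with it. The part of sex in these differences was not tested.

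Genes whose level followed that of Mlana over the 7 libraries were those that separated the strains. The 5 with the highest Pearson r were Hsdl2 (0.98), Fh1 (0.97), Eci2 (0.97), Plin3 (0.97) and Xrcc5 (0.97), with r for deviations within strains between 0.66 and 0.8. Hsdl2 was at 247.26, 246.86 and 242.95 in BALB/cByJ and at 178.16, 156.55, 168.29 and 160.72 in BALB/cJ. Its strains did not overlap, with a log2 difference of 0.57, and since these genes were picked for a pattern that follows the strains, no test is given for them. Within strains the closest genes were gene ID 66598 (r = 1.0), Wdpcp (0.97) and Rmc1 (0.96). Of the other melanocyte genes, Ednrb had an r of 0.92 with Mlana over the 7 libraries and 0.33 within strains, Kit -0.72 and 0.71, Dct -0.13 and -0.03, and Mitf -0.23 and 0.1. These correlations rest on 7 libraries in 2 strains and describe these libraries only.

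None of the tested genes beside Mlana on chromosome 19 was called between the strains. RefSeq annotates 49 genes within 1 Mb of Mlana on GRCm38.p6 and none that overlaps it. Of these, 20 are among the genes of the table and 16 were tested, and limma with Benjamini-Hochberg adjustment called 0 of them at an adjusted p under 0.05, where 1.65% of all tested genes were called. At an unadjusted p under 0.05 there were 3, beside 18.3% of all tested genes. The log2 differences of the 16 ran from -0.25 to 0.3 with a median of 0.0. The nearest tested gene before Mlana was the endoplasmic reticulum metallopeptidase Ermp1, at a distance of 49.1 kb, with 4.48 ± 0.8 (SD) over the 3 BALB/cByJ and 3.96 ± 0.34 over the 4 BALB/cJ libraries and an adjusted p from limma of 0.582. The nearest after it was 9930021J03Rik, at 5.96 kb, with 6.1 ± 0.799 and 6.23 ± 0.65 and an adjusted p of 0.924. The 3 genes with an unadjusted p under 0.05, which were picked after their values were seen, were Ranbp6 (9.21 ± 0.211 and 7.34 ± 0.96, log2 difference 0.3, adjusted p = 0.189 with limma), Ak3 (0.27, adjusted p = 0.186) and Plpp6 (-0.25, adjusted p = 0.253). Within 2 Mb 18 genes were tested and 0 were called.

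**Figure D3:**
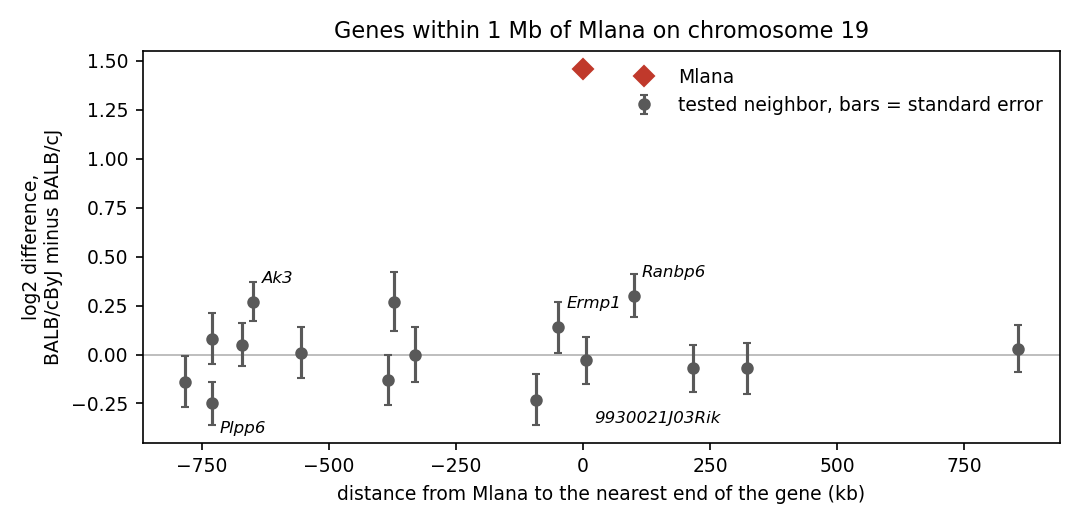
Log2 difference between BALB/cByJ and BALB/cJ of the 16 tested genes within 1 Mb of Mlana, against their distance from Mlana in kb, with bars of 1 standard error, and Mlana at 0 kb. The neighbors lie between -0.25 and 0.3 and Mlana at 1.46.

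Most genes of the wider melanocyte program stayed under 1 in every library of whole ventricle. Of 17 further genes of the lineage, 15 are among the genes of the table, 11 of them stayed under 1 in every library and 4 were tested. Sox10, the neural crest factor that acts with MITF, ranged from 0 to 0.22. Mc1r, the melanocortin receptor, ranged from 0 to 0.02, and Slc45a2, a melanosomal transporter, from 0 to 0.03. Slc24a5, an exchanger in pigment cells, reached 0.54. The tested genes are all used by other cells as well and limma called none of them at an adjusted p under 0.05. They were the coactivator Cited1 (52.3 ± 7.67 in BALB/cByJ and 60.7 ± 7.34 in BALB/cJ, adjusted p = 0.363), the melanosome transport genes Rab27a (log2 difference -0.09, adjusted p = 0.723) and Myo5a (-0.25, adjusted p = 0.276), and the melanoregulin gene Mreg (0.15, adjusted p = 0.555). None had an unadjusted p under 0.05.

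The machinery that builds melanosomes and other lysosome-related organelles was expressed throughout and gave no call. All 24 listed genes, subunits of BLOC-1, AP-3 and the Hermansky-Pudlak complexes among them, were tested, and limma called 0. An unadjusted p under 0.05 was found for 4 of the 24, beside 18.3% of all tested genes. The median log2 difference was -0.05, beside -0.073 over all genes tested. The 4 with the smallest p were the BLOC-1 subunits Bloc1s4 (log2 difference -0.31, adjusted p = 0.147 with limma) and Bloc1s5 (-0.26, adjusted p = 0.218), the AP-3 subunit Ap3d1 (-0.23, adjusted p = 0.229) and the vesicle fusion gene Vps33a (-0.27, adjusted p = 0.244).

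The ligands of EDNRB, its partner receptor and the endothelin-converting enzymes gave no call. Endothelin 3, the ligand for melanoblasts, was under the minimum mean, with Edn3 at 0.05 to 0.13. Edn1, the endothelial ligand, had a BALB/cByJ mean of 4.88 ± 0.657 (SD, n = 3) and a BALB/cJ mean of 5.59 ± 0.307 (SD, n = 4; adjusted p = 0.442 with limma). Ednra, the other endothelin receptor, was at 21.0 ± 3.41 and 21.8 ± 2.07 (log2 difference -0.06, adjusted p = 0.825). The endothelin-converting enzymes Ece1 (-0.2, adjusted p = 0.374) and Ece2 (0.12, adjusted p = 0.623) were not called either, so 0 of 4 tested genes of the list were called, and 0 had an unadjusted p under 0.05.

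The KIT ligand, signaling genes downstream of KIT and the related receptors Csf1r, Pdgfra, Pdgfrb and Flt3 gave no call. Kitl was at 39.34, 29.24 and 27.33 in BALB/cByJ and at 26.25, 29.08, 32.79 and 38.25 in BALB/cJ, so that the highest and the lowest libraries of the strains nearly coincided (log2 difference 0.01, adjusted p = 0.972 with limma). Limma called 0 of 13 tested genes of the list, with a median of -0.13. Beside 18.3% of all tested genes, 2 of the 13 had an unadjusted p under 0.05. These were Csf1r, the related receptor of macrophages (4.86 ± 1.28 and 7.46 ± 0.367, log2 difference -0.55, adjusted p = 0.0668), and Pik3r1, a regulatory subunit of PI3-kinase (-0.39, adjusted p = 0.102). The other 11 (Lyn, Cbl, Grb2, Gab2, Sos1, Ptpn6, Ptpn11, Sh2b3, Pdgfra, Pdgfrb and Kitl) had log2 differences between -0.23 and 0.14, and Flt3 was at most 0.03.

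Tfe3, a member of the same MiT family as Mitf, was lower in BALB/cByJ. TFE3, TFEB and TFEC bind the same DNA motifs as MITF, and TFE3 and TFEB are best known for controlling lysosomal genes. Tfe3, an X-linked gene, was at 11.1, 9.22 and 7.41 in BALB/cByJ and at 17.58, 18.88, 18.28 and 17.21 in BALB/cJ. The strains did not overlap, with means of 9.24 ± 1.85 (SD, n = 3) and 18.0 ± 0.742 (SD, n = 4), a ratio of BALB/cByJ over BALB/cJ of 0.514 and a log2 difference of -0.91 ± 0.12 (SE, adjusted p = 0.00132 with limma and Benjamini-Hochberg adjustment). In this direction 0.881% of all tested genes were called. The call was kept in every alternative that was run, with adjusted p from limma between 0.00064 and 0.0314. With the Y-linked level as a covariate the log2 difference was -0.95, but that level follows strain, so sex and strain cannot be told apart with it. Tfeb was not called (16.2 ± 1.23 and 18.4 ± 2.37, log2 difference -0.16, adjusted p = 0.462), and Tfec, at 0.05 to 0.55, was under the minimum mean. Of the 4 family members Tfe3 alone separated the strains, although whether its difference exceeds that of Mitf or Tfeb was not tested.

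**Figure D4:**
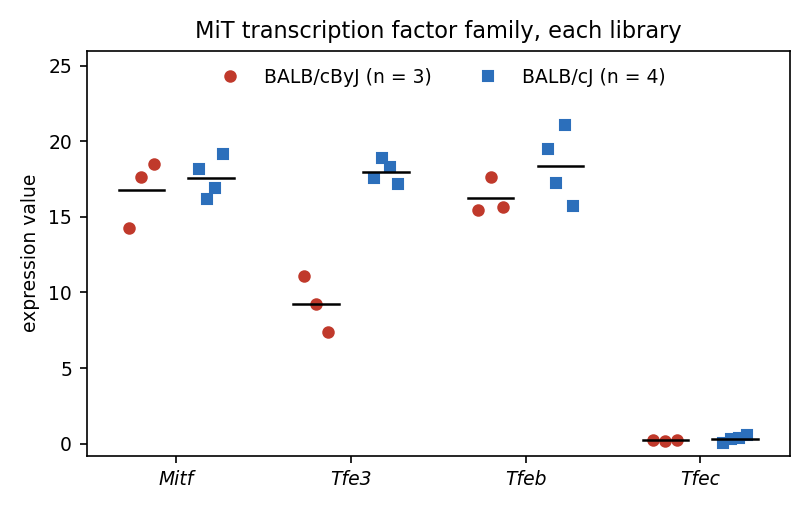
Expression values of Mitf, Tfe3, Tfeb and Tfec in each library of BALB/cByJ (circles, 3 libraries) and BALB/cJ (squares, 4 libraries), with horizontal lines at the strain means. Tfe3 is between 7.41 and 11.1 in BALB/cByJ and between 17.21 and 18.88 in BALB/cJ, and the other genes overlap.

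Genes that MITF activates outside pigment cells gave 1 call among 8 tested, which was not stable, where 0.881% of all tested genes were called in its direction. An unadjusted p under 0.05 was found for 3 of the 8, beside 18.3% of all tested genes, and the median log2 difference was -0.14. Ctsk, the lysosomal protease of osteoclasts and fibroblasts, had a BALB/cByJ mean of 5.56 ± 0.587 (SD, n = 3) and a BALB/cJ mean of 8.34 ± 0.946 (SD, n = 4), a log2 difference of -0.51 ± 0.12 (SE, adjusted p = 0.045 with limma). Leaving out any library other than BALB/cJ 1 lost the call, with adjusted p from limma of 0.162, 0.105 and 0.0835 when BALB/cByJ libraries 1, 2 and 3 were left out and of 0.0901, 0.117 and 0.112 when BALB/cJ libraries 2, 3 and 4 were. It was also lost with TMM scaling (0.0682), quantile normalization (0.11), no filter (0.13), the Y-linked covariate (0.0768) and the Myl7 and Sln covariate (0.0854). The survival gene Bcl2 (log2 difference -0.32, adjusted p = 0.17), the transcription factor Tbx2 (-0.33, adjusted p = 0.218) and Hif1a, the hypoxia factor (0.2, adjusted p = 0.331), were not called.

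Enzymes of tyrosine and pterin metabolism and the tautomerases related to DCT in activity gave 1 call among 5 tested genes. Pcbd1, which recycles a pterin cofactor and also partners the factor HNF1, was at 31.32, 25.87 and 35.05 in BALB/cByJ and at 14.85, 20.08, 18.87 and 20.07 in BALB/cJ. The strains did not overlap, and Pcbd1 was 0.7 ± 0.13 higher in BALB/cByJ on the log2 scale (SE, adjusted p = 0.015 with limma), a direction in which 0.771% of all tested genes were called. Among the settings that lost the call were leaving out BALB/cByJ 1 (adjusted p = 0.0683), leaving out BALB/cByJ 3 (0.0912), no filter on low values (0.0889) and the Y-linked level as a covariate (0.199). Gch1, which starts pterin synthesis, had a log2 difference of -0.24 (adjusted p = 0.394), and Qdpr, the other recycling enzyme, of -0.19 (adjusted p = 0.33). The tautomerases Mif (-0.13, adjusted p = 0.538) and Ddt (-0.07, adjusted p = 0.773) were not called, and Th, which encodes tyrosine hydroxylase, was at most 0.09.

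**Figure D5:**
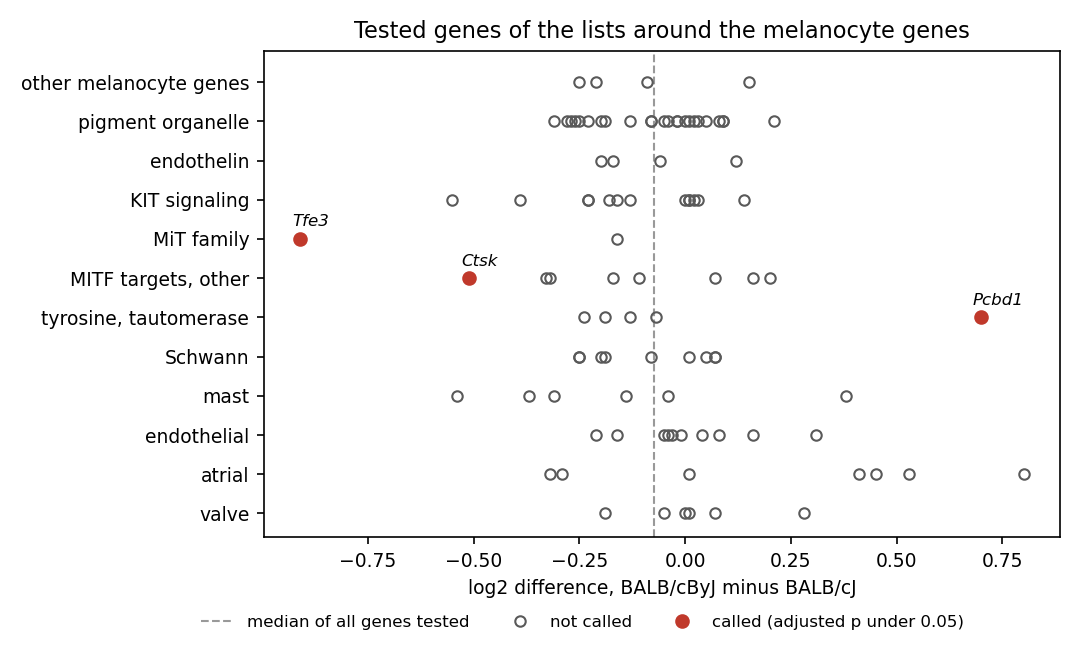
Log2 difference between BALB/cByJ and BALB/cJ of each tested gene in 12 lists around the melanocyte genes, with called genes filled and named and a dashed line at the median of all genes tested (-0.073). Only Tfe3, Ctsk and Pcbd1 are called in these lists.

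Markers of the cells that could carry these transcripts gave no call in any list other than the Y-linked genes. Schwann cells share a neural crest origin with melanocytes, and limma called 0 of 9 tested Schwann cell genes, with 0 at an unadjusted p under 0.05 and summed levels of 16.6 to 18.8 in BALB/cByJ and 17.5 to 20.6 in BALB/cJ. The neural crest factor Foxd3, at 0 to 0.07, was near 0. Of 6 tested mast cell genes 0 were called, with a median log2 difference of -0.22. Beside 18.3% of all tested genes, 2 of the 6 had an unadjusted p under 0.05. Of these genes Tpsb2, a mast cell tryptase, had a log2 difference of -0.54 (adjusted p = 0.0788 with limma, and 0.0129 without BALB/cByJ 1), the protease genes Cpa3 and Cma1 had -0.37 (adjusted p = 0.295) and -0.31 (adjusted p = 0.317), Hdc, which makes histamine, -0.14, and the transcription factor Gata2 -0.04. The chymase gene Mcpt4 alone was on the other side, at 0.38 (adjusted p = 0.254). The valve list held 6 tested genes with 0 calls and sums of 141 to 205 and 129 to 169. Of 10 tested endothelial genes and 10 tested cardiomyocyte genes 0 were called, with medians of -0.02 and 0.16. Skin was checked as a source of melanocytes carried over at dissection, and 7 of 8 keratinocyte genes stayed under 1 in every library. Their summed level was 2.1 to 2.75 in BALB/cByJ and 2.57 to 3.73 in BALB/cJ, and Krt10, at 1.37 to 2.26, carried most of it. Mlana itself was under 1 in every BALB/cJ library, so a level under 1 does not show that a cell type was absent. The part of these cell types in the levels of Mlana was not tested.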

How the data were processed

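RNA of pooled P4 ventricles was sequenced by a service provider, BGI Genomics. The table that the authors deposited gives each gene 1 signal, normalized for depth and length, in each of 3 BALB/cByJ and 4 BALB/cJ libraries. The submitters' processing notes name the build mm10, and the sources used here name no aligner or quantification. No counts were at hand, so count tests and counting intervals were not applied, and the spread between pools is the only error. P-values set the strain difference against the spread between pools within strains, which limma moderates with a variance trend over all tested genes.

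Values were taken as log2(value + 1). Genes reaching a mean of 0.5 (12715) entered a limma 3.58.1 fit (R 4.3.3) of strain alone with a variance trend, and were called at a Benjamini-Hochberg adjusted p under 0.05. The script was tested on simulated data. Gene IDs were matched to RefSeq for 17289 genes. Figures were drawn with matplotlib 3.10.9 and summaries made with pandas 2.3.3 and numpy 2.4.6 under Python 3.11.15.

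The 8 members, the 15 gene lists and the tests were chosen with earlier results of these data known. Named were the members, the tested genes of the endothelin, MiT and KIT lists, up to 4 genes with the smallest p and any called gene of other lists, the nearest tested neighbors of Mlana and the genes most like it. Some listed genes are not reported here. Any other gene named was picked with its values in view. Alternatives were a pseudocount of 0.1, no filter, a minimum mean of 2, TMM scaling (30% and 5% trimmed), quantile normalization, the replicate block, a Y-linked covariate and leaving out each library, and, added after the data were seen, a Myl7 and Sln covariate, 6 libraries without a block and the ratio of strain means.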

Additional observations from a re-analysis of the deposited data

Results flagged for a closer look

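In 82 groups of 4 BALB/cJ libraries, 1 per gene, 5 held a library whose gap to the nearest of the others was larger, as a share of the range of the group, than Dixon's 95% critical value, and chance gives about 1 in 20. Tyrp1 was at 0.06 in BALB/cJ 1 and listed at 0 in the other libraries of that strain. Such a group is flagged whatever the value above 0, so the chance share does not apply to it. Dct was at 2.59 in BALB/cJ 1, with the others between 1.31 and 1.52. Mreg was at 5.85 in BALB/cJ 1, with the others between 7.73 and 8.01. Ptpn6 was at 2.98 in BALB/cJ 3, with the others between 1.92 and 2.05. Cthrc1, a matrix gene of the valve list, was at 13.1 in BALB/cJ 2, with the others between 9.12 and 9.66.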

How the results depend on the processing

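The log2 difference of Mlana was 1.46, and 2.49 with a pseudocount of 0.1, 1.72 with the Y-linked covariate and 2.56 as the log2 of the ratio of strain means. It lay between 1.36 and 1.56 when libraries were left out in turn. The 98 genes higher in BALB/cByJ became 50 in the 6 libraries without a block, 38 with the replicate number as a block, 23 without a filter and 25 with the Y-linked covariate, and 36 to 85 without a library. The 112 lower genes became 32, 20, 16 and 21 in the same order, 59 with TMM scaling, 49 with quantile normalization, 67 with the Myl7 and Sln covariate, and 28 to 105 without a library. TMM scaling moved the median of all genes from -0.073 to -0.006 and quantile normalization to -0.013. The 3 calls in the lists other than the Y-linked genes became 1 with the replicate block (adjusted p from limma of 0.0724 for Pcbd1 and 0.226 for Ctsk), without a filter or with the Y-linked covariate, and 1 to 3 without a library. Same-numbered libraries did not deviate together (r of -0.194, -0.26 and -0.05), so the block pairs nothing that the labels name. No neighbor of Mlana was called in any setting. Of 74 named genes with a test, 8 were called, of which 1 kept its call in all 16 other settings and 0 changed sign. The 8 include the Y-linked genes, and Hsdl2, which was picked for a pattern that follows the strains, so its call is no support. Another 14 uncalled genes, with log2 differences of at most 0.36 in size, changed sign in some setting. Depth is unknown, which limits what can be said of Pmel, Tyr and Tyrp1, and of Mlana in BALB/cJ, where it was at 0.26 to 0.86. The causes were not tested.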
